A study of Mus musculus with 12 samples.

Results

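Glucose uptake and glycolysis genes were described as a group of 30 genes, chosen by name to cover the path from glucose transport to lactate export and the entry of pyruvate into mitochondria. All 30 were among the 25860 genes of the deposited RNA-seq table, and all 30 reached a mean of at least 10 normalized counts, as did 14459 genes in all, the genes tested. The study compared CD8+ T progenitor (T_prog_) cells, a stem-like population that gives rise to the effectors of autoimmune diabetes, of the pancreatic lymph node, in which *NOD-TCR 8.3 WT* mice were set against *NOD-TCR 8.3 UTX TCD* mice. RNA-seq and ATAC-seq were each performed on 3 libraries per genotype. Both groups were female nonobese diabetic mice carrying the transgenic 8.3 T cell receptor (NOD.Cg-Tg(TcraTcrbNY8.3)1Pesa/DvsJ), which recognizes an epitope of the β cell antigen IGRP on MHC class I. *UTX TCD* mice were *UTX fl/fl* *Lck-Cre+*, so that *Kdm6a*, the X-linked gene encoding the histone demethylase UTX, was deleted in T cells from the thymus onward, and WT mice were the Cre-negative, UTX-sufficient counterparts. Cells were sorted as positive for Ly108 and negative for CXCR6 according to the labels, or negative for CD39 according to the study's methods. Each genotype was represented by 3 mice as biological replicates, so p-values measure the spread between these replicates. The age of the mice for these libraries is not given in the sources used here.

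Glycolysis converts glucose to pyruvate in the cytosol, where hexokinase traps glucose, phosphofructokinase commits it and the lower steps return ATP and NADH. Pyruvate is then reduced to lactate by lactate dehydrogenase and exported by monocarboxylate transporters, or oxidized in mitochondria by pyruvate dehydrogenase, which pyruvate dehydrogenase kinases restrain. Naive and memory-like CD8+ T cells are known to rely largely on oxidative metabolism, and effector CD8+ T cells raise glycolysis as they divide.

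The WT libraries held 146456724, 144503203 and 193568919 counted reads, and the *UTX TCD* libraries held 61512402, 175462433 and 187275082. *UTX TCD* replicate 1 was the shallowest. The 30 genes took 0.286%, 0.287% and 0.298% of all counted reads in the WT libraries, and 0.274%, 0.283% and 0.292% in the *UTX TCD* libraries, and these ranges overlapped. *Kdm6a* was counted at 28365, 28949 and 29172 normalized counts in WT and at 24158, 24792 and 24579 in *UTX TCD* libraries. Each *UTX TCD* library was under the lowest WT library, with a log2 fold change of *UTX TCD* over WT of -0.23 (SE 0.04, limma adjusted p = 0.00114); gene counts hold no information on the deleted exon.

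Markers of the labelled cell type were abundant. The 6 T cell markers summed to between 827295 and 942881 normalized counts per library, with *Cd8a* the most abundant, and the 5 progenitor markers to between 617965 and 685481, with *Tcf7* the most abundant. None passed both limits. At the adjusted p alone, 4 of the 6 T cell markers were lower (20.5% of all genes tested), among them *Cd8b1*, *Cd3d* and *Cd3g* with log2 fold changes of -0.37, -0.28 and -0.26, and 1 was higher (20.2% of all genes tested). Of the progenitor markers, *Lef1* was higher (log2 fold change 0.38, SE 0.08, limma adjusted p = 0.00517) and 4 did not pass. *Slamf6*, which encodes Ly108, was counted at 27732, 34096 and 23305 in WT and at 36665, 30980 and 35425 in *UTX TCD* libraries. The groups overlapped (log2 fold change 0.29, SE 0.12, limma adjusted p = 0.0890), and the log2 fold change ranged from 0.16 to 0.43 in the alternatives. *Cxcr6*, whose protein the labelled gate excludes, was counted at 12757, 9619 and 13724 in WT and at 5286, 5994 and 5695 in *UTX TCD* libraries. Every *UTX TCD* library was below every WT library (log2 fold change -1.07, SE 0.12, limma adjusted p = 0.000131). *Entpd1*, which encodes CD39, was at 11, 30 and 11 in WT and at 4, 13 and 4 in *UTX TCD* libraries, with overlapping groups (log2 fold change -1.15, SE 0.56, limma adjusted p = 0.131).

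Of the 30 genes, 2 passed an adjusted p under 0.05 with a log2 fold change above 0.5, *Hk2* and *Eno2*, against 10.5% of all genes tested. Another 2 passed both limits in the other direction, *Aldoc* and *Slc16a1*, against 7.05% of all genes tested. Without the fold limit, 3 genes were higher at an adjusted p under 0.05 (20.2% of all genes tested) and 9 were lower (20.5% of all genes tested), and 18 did not pass. All 3 *UTX TCD* libraries lay above all 3 WT libraries for 7 genes (25.8% of all genes tested) and below them for 10 genes (26.1% of all genes tested). The counts past both limits and the counts of groups apart were near the background. At the adjusted p alone more of the 30 genes were lower than higher. This balance turned in 1 of 15 alternatives, the scaling to equal sums. Any scaling shifts all genes of a library alike, so the balance depends on the scaling used and is not settled here. In other alternatives it ran from 5 higher and 8 lower with DESeq2, and 5 and 7 without *UTX TCD* replicate 3, to 3 and 10 without WT replicate 2. With libraries scaled to equal sums, 8 genes were higher and 6 lower at the adjusted p, beside 26.2% and 15.1% of all genes tested. The median log2 fold change of the 30 genes was -0.014, beside -0.00018 for all genes tested. Glycolysis genes did not all move in the same direction. In sorted populations such as these, a change in the share of cells expressing a gene and a change in RNA per cell cannot be told apart.

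**Figure D1:**
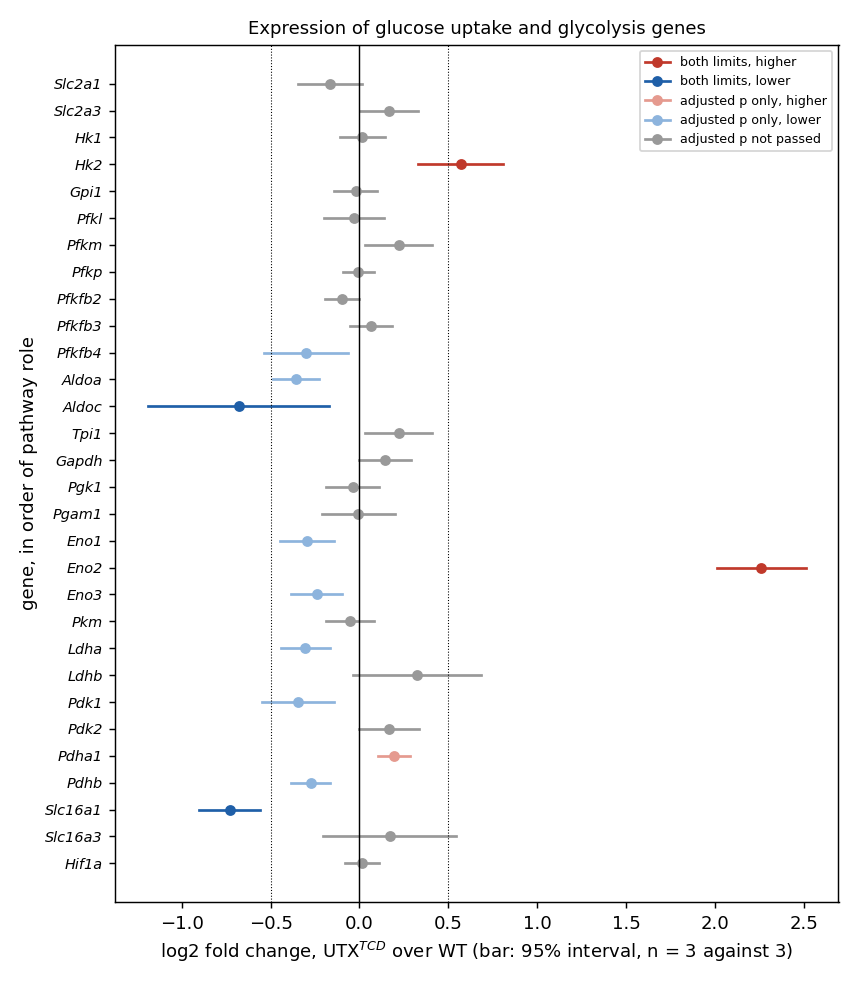
Log2 fold change of *UTX TCD* over WT on the x axis for each of the 30 genes, in order of their place in the pathway, with points for the estimate and bars for the 95% interval (3 libraries against 3). Dotted lines mark the limit of 0.5 in either direction; *Eno2* stands at 2.26, and most other genes lie between the dotted lines.

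Glucose enters T cells through the transporters GLUT1 and GLUT3. *Slc2a1*, encoding GLUT1, had a log2 fold change of -0.17 (SE 0.08, limma adjusted p = 0.131), and its groups overlapped. Without WT replicate 2 its adjusted p was 0.0173, the lowest of a range up to 0.357. *Slc2a3*, encoding GLUT3, had a log2 fold change of 0.17 (SE 0.07, limma adjusted p = 0.0941). The *UTX TCD* libraries all lay above the WT libraries for *Slc2a3*, but the difference did not pass the adjusted p, which was 0.0235 with libraries scaled to equal sums and up to 0.220 in other alternatives. Per kilobase of exon, *Slc2a3* took 72.0% ± 0.0625 (SD, n = 3) of the signal of both transporters in WT libraries and 76.4% ± 0.542 (SD, n = 3) in *UTX TCD* libraries. The shares did not overlap between genotypes (exact permutation test, two-sided, p = 0.10, the smallest that 3 libraries against 3 allow).

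Hexokinases phosphorylate glucose on entry. *Hk2*, the inducible hexokinase, was counted at 857, 1040 and 930 normalized counts in WT and at 1309, 1305 and 1581 in *UTX TCD* libraries. Every *UTX TCD* library was above every WT library, and replicate 3 was the highest. The log2 fold change was 0.57 (SE 0.11, 95% interval 0.33 to 0.81, limma adjusted p = 0.00271). Without *UTX TCD* replicate 3 it was 0.48, under the fold limit, with an adjusted p of 0.00700, and over all 15 alternatives the adjusted p was at most 0.0137. *Hk1*, the constitutive hexokinase, was much the more abundant per kilobase of exon, at 6438 ± 320 (SD, n = 3) in WT against 171 ± 16.7 (SD, n = 3) for *Hk2*. Its log2 fold change was 0.02 (SE 0.06, limma adjusted p = 0.833), and its groups overlapped. *Hk2* therefore took a small part of the hexokinase signal per kilobase in both genotypes, 2.59% ± 0.353 (SD, n = 3) in WT libraries and 3.77% ± 0.616 (SD, n = 3) in *UTX TCD* libraries, without overlap (exact permutation test, two-sided, p = 0.10).

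Glucose phosphate isomerase and the phosphofructokinases follow. *Gpi1* and the 3 phosphofructokinase subunits *Pfkl*, *Pfkm* and *Pfkp* did not pass the adjusted p, with log2 fold changes from -0.03 for *Pfkl* to 0.22 for *Pfkm* (SE 0.08, limma adjusted p = 0.0632). The adjusted p of *Pfkm* was 0.0387 with DESeq2, 0.0199 with libraries scaled to equal sums and 0.0185 without *UTX TCD* replicate 3, over a range of 0.0185 to 0.192. *Pfkp* was the most abundant subunit per kilobase, with 74.2% ± 1.84 (SD, n = 3) of the signal of the subunits in WT libraries and 73.2% ± 0.633 (SD, n = 3) in *UTX TCD* libraries (exact permutation test, two-sided, p = 0.70). PFKFB enzymes set the level of fructose 2,6-bisphosphate, the activator of phosphofructokinase. *Pfkfb4* was counted at 988, 782 and 950 in WT and at 736, 727 and 733 in *UTX TCD* libraries. The *UTX TCD* libraries lay close together below the lowest WT library, WT replicate 2. The log2 fold change was -0.30 (SE 0.10, limma adjusted p = 0.0452), close to the limit. The adjusted p was above 0.05 in 8 of 15 alternatives, among them the fits without WT replicate 1 (0.178), WT replicate 3 (0.135) and *UTX TCD* replicates 1, 2 and 3 (0.0877, 0.115 and 0.0745), and it was 0.00748 without WT replicate 2, the lowest of all alternatives. *Pfkfb2* and *Pfkfb3* did not pass, with log2 fold changes of -0.10 and 0.06.

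Aldolases split the hexose, and both members of the group were lower. *Aldoa*, the main aldolase of these cells, was counted at 36277, 33736 and 39036 in WT and at 27375, 28815 and 28881 in *UTX TCD* libraries. All 3 *UTX TCD* libraries were below the lowest WT library, with a log2 fold change of -0.36 (SE 0.06, limma adjusted p = 0.00113). *Aldoc*, the brain aldolase, was scarce, at 101, 81 and 104 in WT and at 54, 73 and 52 in *UTX TCD* libraries. The groups did not overlap, but *UTX TCD* replicate 2 came close to WT replicate 2. Its log2 fold change was -0.68 (SE 0.23, limma adjusted p = 0.0390), and the adjusted p was 0.130 without WT replicate 1, 0.121 without WT replicate 3, 0.0995 without *UTX TCD* replicate 1 and 0.0820 without *UTX TCD* replicate 3. The call was lost in 8 of 15 alternatives, over which the adjusted p ranged from 0.0357 to 0.130. *Tpi1*, encoding triose phosphate isomerase, had all *UTX TCD* libraries above WT without passing the adjusted p (log2 fold change 0.22, SE 0.08, limma adjusted p = 0.0612). Its adjusted p was 0.0247 with DESeq2, 0.0299 with libraries scaled to equal sums, 0.0434 with the replicate block and 0.0242 without *UTX TCD* replicate 1, over a range of 0.0242 to 0.164 in all alternatives. Without *UTX TCD* replicate 3 its log2 fold change was 0.12.

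*Gapdh*, which forms NADH in glycolysis, was counted at 1795, 1637 and 1698 normalized counts in WT and at 1943, 1865 and 1864 in *UTX TCD* libraries. The *UTX TCD* libraries lay above the WT libraries by a small margin, with a log2 fold change of 0.15 (SE 0.06, limma adjusted p = 0.104). With libraries scaled to equal sums, its log2 fold change was 0.21 and the adjusted p 0.0296, and over all alternatives the adjusted p ranged from 0.0296 to 0.249. *Pgk1* and *Pgam1*, encoding phosphoglycerate kinase and phosphoglycerate mutase, had log2 fold changes of -0.04 (SE 0.07, limma adjusted p = 0.680) and -0.0062 (SE 0.09, limma adjusted p = 0.962), with overlapping groups. These genes have processed pseudogenes. Of all 50-base windows of their RefSeq transcripts, 81.3% for *Gapdh*, 92.9% for *Pgk1* and 91.8% for *Pgam1* had an exact copy elsewhere in the GRCm38 chromosomes, so that their levels are uncertain. For *Tpi1*, 25.9% of such windows had an exact copy elsewhere. How reads with several matches were counted is not given in the sources used here.

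Enolases form phosphoenolpyruvate, and the members of this family moved in different directions. *Eno2*, encoding the enolase best known from neurons, was counted at 248, 223 and 278 normalized counts in WT and at 1203, 1219 and 1162 in *UTX TCD* libraries. The groups were far apart, and the libraries within each group were close. The log2 fold change of 2.26 (SE 0.11, 95% interval 2.01 to 2.51, limma adjusted p = 1.33e-06) was the largest of the 30 genes in either direction. It was between 2.18 and 2.34 in all 15 alternatives. *Eno1*, the main enolase, was counted at 25977, 24577 and 29151 in WT and at 20377, 22452 and 22093 in *UTX TCD* libraries. All *UTX TCD* libraries were below all WT libraries (log2 fold change -0.29, SE 0.07, limma adjusted p = 0.00737). Since 71.3% of the 50-base windows of *Eno1* have an exact copy elsewhere, its level is uncertain. *Eno1b*, a near-identical copy with a separate entry, was counted at 3358, 3183 and 3676 in WT and at 2789, 2837 and 2857 in *UTX TCD* libraries. It was lower in the same way (log2 fold change -0.27, SE 0.06, limma adjusted p = 0.00948). *Eno3*, the muscle enolase, was counted at 2585, 2907 and 2628 in WT and at 2249, 2307 and 2309 in *UTX TCD* libraries. All of its *UTX TCD* libraries lay below its WT libraries (log2 fold change -0.24, SE 0.06, limma adjusted p = 0.0150), and with libraries scaled to equal sums the adjusted p was 0.0646. The share of *Eno2* in the signal of *Eno1*, *Eno2* and *Eno3* per kilobase of exon was 0.556% ± 0.0241 (SD, n = 3) in WT libraries. It was 3.18% ± 0.174 (SD, n = 3) in *UTX TCD* libraries, without overlap (exact permutation test, two-sided, p = 0.10). *Eno1b* was left out of this share, which is uncertain because the level of *Eno1* is.

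**Figure D2:**
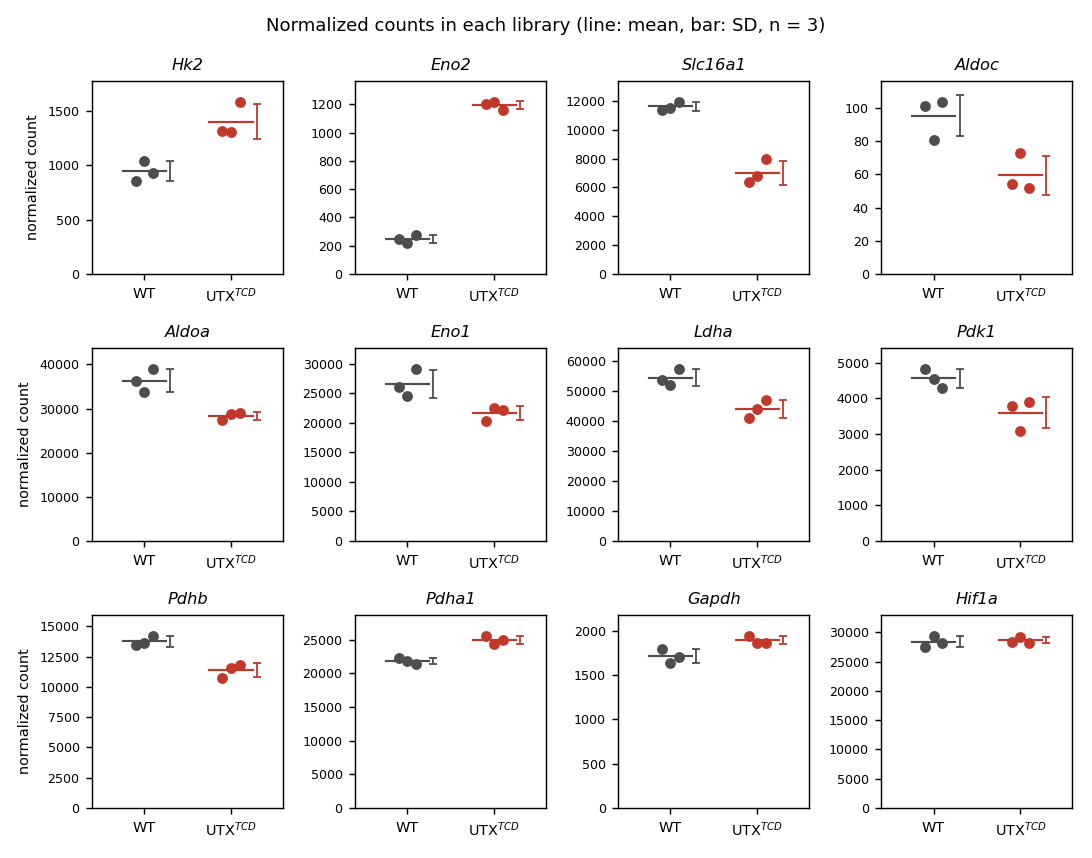
Normalized counts on the y axis, starting at 0, in each of 3 WT and 3 *UTX TCD* libraries for 12 of the 30 genes, with points for libraries, lines for means and bars for SD. *Eno2* lies between 223 and 278 in WT and between 1162 and 1219 in *UTX TCD* libraries, and the groups overlap for *Hif1a*.

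*Pkm*, encoding pyruvate kinase, did not pass the adjusted p (log2 fold change -0.05, SE 0.06, limma adjusted p = 0.498), and counts per gene do not separate its splice forms. Lactate dehydrogenase is built from subunits of *Ldha* and *Ldhb*. *Ldha*, by the deposited counts the highest of the 30 genes per kilobase of exon in WT, was counted at 53840, 51947 and 57554 in WT and at 41018, 44140 and 47136 in *UTX TCD* libraries. Every *UTX TCD* library was below every WT library, with a log2 fold change of -0.31 (SE 0.06, limma adjusted p = 0.00371). The rank of *Ldha* is uncertain, since some of its 50-base windows have an exact copy elsewhere, as do most of those of *Gapdh*, *Pgk1*, *Pgam1* and *Eno1*. *Ldhb* had a log2 fold change of 0.32 (SE 0.16, limma adjusted p = 0.140) with overlapping groups, and its adjusted p was 0.0396 without *UTX TCD* replicate 3, over a range of 0.0396 to 0.377 in all alternatives. The share of *Ldhb* in the signal of both subunits per kilobase was 1.19% ± 0.131 (SD, n = 3) in WT libraries and 1.84% ± 0.380 (SD, n = 3) in *UTX TCD* libraries (exact permutation test, two-sided, p = 0.10). Since 32.4% of the 50-base windows of *Ldhb* have an exact copy elsewhere, this share is uncertain.

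Lactate leaves through monocarboxylate transporters. *Slc16a1*, encoding MCT1, was counted at 11369, 11516 and 11936 normalized counts in WT and at 6341, 6790 and 7957 in *UTX TCD* libraries. The WT libraries lay close together, well above every *UTX TCD* library. The log2 fold change of -0.73 (SE 0.08, 95% interval -0.90 to -0.56, limma adjusted p = 0.000107) was between -0.82 and -0.66 in all 15 alternatives. *Slc16a3*, encoding MCT4, was low in both genotypes, with a log2 fold change of 0.17 (SE 0.17, limma adjusted p = 0.451) that ranged from 0.04 to 0.26 with a library left out. Its share of the signal of both transporters per kilobase was 3.09% ± 0.414 (SD, n = 3) in WT libraries and 5.58% ± 0.405 (SD, n = 3) in *UTX TCD* libraries, without overlap (exact permutation test, two-sided, p = 0.10).

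Pyruvate dehydrogenase links glycolysis to mitochondria. *Pdhb*, encoding its E1 beta subunit, was counted at 13426, 13599 and 14242 in WT and at 10748, 11575 and 11812 in *UTX TCD* libraries. All *UTX TCD* libraries were below all WT libraries (log2 fold change -0.27, SE 0.05, limma adjusted p = 0.00218), and 34.7% of its 50-base windows have an exact copy elsewhere. *Pdha1*, encoding the E1 alpha subunit, was counted at 22374, 21912 and 21448 in WT and at 25641, 24453 and 25055 in *UTX TCD* libraries. It was higher in every *UTX TCD* library, with a log2 fold change of 0.19 (SE 0.04, limma adjusted p = 0.00453). Exons of *Map3k15* on the opposite strand overlap 20.9% of the exon bases of *Pdha1*, and the strand setting of the counting is not given in the sources used here. *Pdk1*, encoding a kinase that inhibits the enzyme, was counted at 4830, 4551 and 4289 in WT and at 3797, 3094 and 3900 in *UTX TCD* libraries. Every *UTX TCD* library was below every WT library, and replicate 2 was the lowest. The log2 fold change was -0.35 (SE 0.09, limma adjusted p = 0.0139). Without WT replicate 1 its adjusted p was 0.0556, the highest of its alternatives, which started at 0.000901. *Pdk2* did not pass (log2 fold change 0.17, SE 0.08, limma adjusted p = 0.109), and its adjusted p ranged from 0.0437, with libraries scaled to equal sums, to 0.358. The share of *Pdk1* in the signal of *Pdk1* and *Pdk2* per kilobase of exon was 54.1% ± 1.18 (SD, n = 3) in WT libraries and 45.2% ± 2.92 (SD, n = 3) in *UTX TCD* libraries (exact permutation test, two-sided, p = 0.10). Per kilobase of coding sequence it was 70.1% ± 0.996 (SD, n = 3) and 62.2% ± 2.74 (SD, n = 3), so that which kinase was more abundant in *UTX TCD* cells depended on the length used.

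*Hif1a* encodes the oxygen-regulated subunit of HIF-1, which activates many of these genes and is controlled mainly at the protein level. It was counted at 27534, 29438 and 28202 in WT and at 28426, 29264 and 28235 in *UTX TCD* libraries. The groups overlapped, with a log2 fold change of 0.013 (SE 0.04, 95% interval -0.08 to 0.11, limma adjusted p = 0.829).

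Per kilobase of exon in WT, *Ldha* at 28211 ± 1478 (SD, n = 3), *Aldoa* at 19928 ± 1453 (SD, n = 3) and *Pkm* at 14589 ± 731 (SD, n = 3) ranked highest. This order holds for the counts as deposited and is uncertain. Most 50-base windows of *Gapdh*, *Pgk1*, *Pgam1* and *Eno1* have an exact copy elsewhere, and how such reads were counted is not given. *Ldha*, *Aldoa*, *Pkm* and *Gpi1* also have such windows, in smaller shares. *Gpi1* at 14348 ± 866 (SD, n = 3) did not differ from *Pkm* beyond the spread. *Eno2* at 83.7 ± 9.27 (SD, n = 3) and *Slc16a3* at 83.3 ± 9.55 (SD, n = 3) did not differ beyond theirs, and *Aldoc* was lowest at 33.1 ± 4.33 (SD, n = 3). The genes past both limits therefore included 3 of low abundance, *Hk2*, *Eno2* and *Aldoc*, and *Slc16a1* of middle abundance, while the abundant *Aldoa*, *Eno1* and *Ldha* fell by less than the fold limit.

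Among other genes of glycolysis and pyruvate use, 25 of 40 listed genes were tested. Of these, 2 passed both limits as higher (10.5% of all genes tested) and 0 as lower (7.05% of all genes tested), 6 were lower at the adjusted p without the fold limit (20.5% of all genes tested lower at that p), and 17 did not pass. *Ldhd*, encoding a D-lactate dehydrogenase of mitochondria, was higher, at 335 ± 69.5 (SD, n = 3) in WT libraries and 759 ± 115 (SD, n = 3) in *UTX TCD* libraries (log2 fold change 1.19, SE 0.17, limma adjusted p = 0.000556). *Arrdc4* and *Txnip* encode related arrestins that restrain glucose uptake. *Arrdc4* was higher (log2 fold change 0.71, SE 0.15, limma adjusted p = 0.00527), whereas *Txnip* was lower (log2 fold change -0.40, SE 0.10, limma adjusted p = 0.0127). *Mpc1*, encoding a subunit of the mitochondrial pyruvate carrier, had a log2 fold change of -0.30 (SE 0.08, limma adjusted p = 0.0150). *Pdp1*, *Bpgm* and *Adpgk* had log2 fold changes of -0.25, -0.20 and -0.18. Over the alternatives, the highest adjusted p was 0.0575 for *Mpc1*, 0.152 for *Pdp1*, 0.0863 for *Bpgm* and 0.0651 for *Adpgk*. The median of the 25 genes was -0.06.

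The pentose phosphate pathway draws on glucose 6-phosphate to make NADPH and ribose. Of its 8 genes, all tested, *H6pd* passed both limits as lower (log2 fold change -0.52, SE 0.09, limma adjusted p = 0.00173). Its log2 fold change was -0.46 with libraries scaled to equal sums, -0.44 without WT replicate 3 and -0.49 without WT replicate 1, all under the fold limit. *G6pdx* and *Rpia* were lower at the adjusted p alone, *Pgd* was higher, and 4 genes did not pass. The 1 gene past both limits stands beside 7.05% of all genes tested, and the 3 lower and 1 higher at the adjusted p beside 20.5% and 20.2%. The highest adjusted p over the alternatives was 0.0433 for *G6pdx*, 0.0958 for *Rpia* and 0.145 for *Pgd*.

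Of 22 listed genes of the HIF pathway and its targets, 21 were tested. Higher at both limits were *Vegfa* (log2 fold change 1.29, SE 0.28, limma adjusted p = 0.00574) and *Ak4* (log2 fold change 1.00, SE 0.25, limma adjusted p = 0.0110), both of low abundance. Lower at both limits were *Ndrg1* (log2 fold change -1.14, SE 0.09, limma adjusted p = 1.84e-05), *Egln3*, which encodes an oxygen sensor that marks HIF subunits for decay (log2 fold change -0.70, SE 0.09, limma adjusted p = 0.000441), and *Epas1*, which encodes HIF-2 alpha (log2 fold change -0.60, SE 0.18, limma adjusted p = 0.0247). The adjusted p of *Epas1* was above 0.05 without WT replicate 1 (0.0869), WT replicate 3 (0.0811), *UTX TCD* replicate 1 (0.0793) or *UTX TCD* replicate 2 (0.0657), and these were the highest of its alternatives. *P4ha1* was higher, and *Bnip3l* and *Mxi1* lower, at the adjusted p alone, and the adjusted p of *Mxi1* reached 0.0692 in an alternative. The 2 higher and 3 lower of 21 genes stand beside 10.5% and 7.05% of all genes tested, and the median log2 fold change was -0.03.

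Among 18 genes that carry signals to glycolysis, *Irf4*, a transcription factor induced by T cell receptor signals, passed both limits as higher (log2 fold change 0.62, SE 0.18, limma adjusted p = 0.0212). Its adjusted p was above 0.05 without WT replicate 1 (0.0740), WT replicate 3 (0.0662) or *UTX TCD* replicate 3 (0.0731) and with DESeq2 (0.0723), the highest of its alternatives. *Myc*, an activator of glycolytic genes, was higher by less than the fold limit (log2 fold change 0.35, SE 0.08, limma adjusted p = 0.00643). *Rptor*, encoding the raptor subunit of mTORC1, was lower (log2 fold change -0.30, SE 0.05, limma adjusted p = 0.00170). In all, 4 of the 18 genes were higher at the adjusted p (20.2% of all genes tested) and 6 lower (20.5% of all genes tested), and 8 did not pass.

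Genes of cell division moved with genotype. Of 12 proliferation genes, 9 passed both limits as higher (10.5% of all genes tested), 2 were higher at the adjusted p alone, and *Pcna* did not pass, with a median log2 fold change of 0.84. Those past both limits were *Top2a*, *Mki67*, *Ccna2*, *Rrm2*, *Cdk1*, *Ccnb1*, *Birc5*, *Tyms* and *Mcm2*, with log2 fold changes from 1.19 for *Top2a* to 0.57 for *Mcm2*, and they passed in all 15 alternatives. *Mcm5* and *Mcm3* had log2 fold changes of 0.45. The summed normalized counts of all 12 genes were 75868, 83611 and 77565 in WT and 117391, 119945 and 135267 in *UTX TCD* libraries, and *Mki67* was the most abundant. None of the 12 was at 0 in any library. The effector marker sum was also different, at 13970, 10954 and 14876 in WT and 7052, 7795 and 7913 in *UTX TCD* libraries, with *Cxcr6* the most abundant of its 5 genes. *Cxcr6* and the scarce *Havcr2* (log2 fold change -2.23, SE 0.43, limma adjusted p = 0.00301) were called lower, *Tbx21* was called higher (log2 fold change 1.16, SE 0.16, limma adjusted p = 0.000570), and *Gzmb* was lower at the adjusted p alone (log2 fold change -0.47), with an adjusted p of up to 0.0943 in the alternatives. The B cell marker sum was 2951, 2437 and 2800 in WT and 1221, 1082 and 1000 in *UTX TCD* libraries. *Cd79b* was the most abundant of its 5 genes and was called lower, whereas *Ms4a1* was called higher, though its adjusted p reached 0.119 and the call was lost in 4 of 14 alternatives. The NK cell marker sum was 13417, 15386 and 13202 in WT and 19163, 19137 and 26932 in *UTX TCD* libraries, nearly all of it from *Eomes* (log2 fold change 0.62, SE 0.12, limma adjusted p = 0.00388), which memory-like CD8+ T cells are known to express; without *UTX TCD* replicate 3 its log2 fold change was 0.46. The scarce *Klre1* was also called higher (log2 fold change 2.15, SE 0.34, limma adjusted p = 0.00104), while *Klrb1c* did not pass (log2 fold change -1.18, SE 0.59, limma adjusted p = 0.140). The stroma marker sum, nearly all from *Pecam1*, was 31909, 29775 and 32075 in WT and 37932, 38148 and 33880 in *UTX TCD* libraries, without overlap. This sum therefore describes *Pecam1* (log2 fold change 0.22, SE 0.06, limma adjusted p = 0.0114) and not the list as a whole. *Col1a1* overlapped between genotypes (log2 fold change 0.28, SE 0.22, limma adjusted p = 0.342), and *Pdpn* was too scarce to be tested. *Col1a2* was called higher (log2 fold change 0.81, SE 0.23, limma adjusted p = 0.0222), with an adjusted p of 0.0810 without *UTX TCD* replicate 2. Without WT replicate 2 its log2 fold change was 0.53. The sums overlapped between genotypes for the other cell types, at 346 to 450 for CD4 T cells, 81 to 140 for myeloid cells, between 198 and 249.2 for dendritic cells and 24 to 156 for erythroid cells. Among their genes *Cd4* (log2 fold change -0.74, SE 0.24, limma adjusted p = 0.0384) and *Csf1r* (log2 fold change -1.85, SE 0.39, limma adjusted p = 0.00496) were called lower, and the call of *Cd4* was lost in 8 of 15 alternatives. No marker listed was at 0 in all libraries. What part these differences have in the values of the glycolysis genes was not tested.

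ATAC-seq reads mark open chromatin. The deposited table lists 23932 peaks that the authors selected by FDR, with a mean log2 concentration per genotype and no values per library, so differences between genotypes are given here without a test or replicate spread. Peaks were assigned to genes by the annotation in that table. Of the 30 genes, 20 had at least 1 listed peak, beside 47.6% of all genes tested. They had 35 peaks, 23 with a higher mean in *UTX TCD* than in WT cells and 12 with a lower mean, and the 65.7% that were higher lay near the 68.8% of all listed peaks. Of the 20 peaks with means over 0.5 apart, 10 were higher, beside 67.5% of all listed peaks at that limit. The median absolute difference was 0.53 at these peaks and 0.71 at all listed peaks. Introns held 19 peaks and intergenic sequence 11, and 3 lay within 1 kb of an annotated start. All 3 were higher, beside 86.4% of all listed peaks at that distance.

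**Figure D3:**
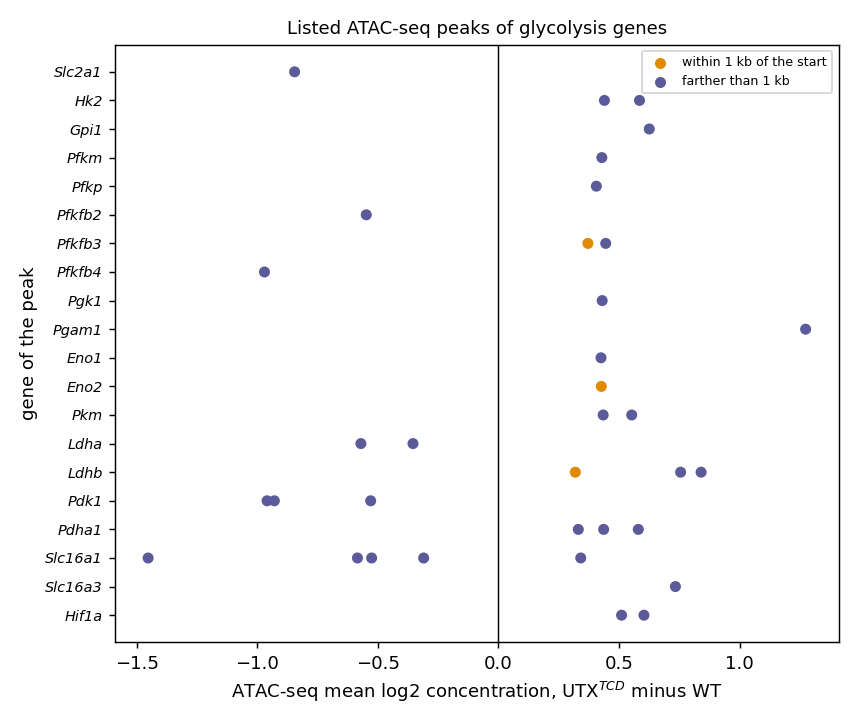
Difference in mean log2 concentration of ATAC-seq, *UTX TCD* minus WT, on the x axis for each of the 35 listed peaks (points) of 20 genes (y axis), coloured by distance to the annotated start. Of the points, 23 lie to the right of 0 and 12 to the left, and the lowest is a *Slc16a1* peak at -1.45.

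*Slc16a1* had the most peaks, 1 higher and 4 lower. The largest difference of all 35 peaks was at chr3:104670338-104670738 of mm10, intergenic and 31.9 kb downstream of the start, with a mean log2 concentration of 8.84 in WT and 7.38 in *UTX TCD* cells, a difference of -1.45. The nearest peak, at chr3:104636494-104636894 and 1.97 kb upstream of the start, had a difference of -0.58. The higher peak lay 22.3 kb upstream, with a difference of 0.34. *Ldha* and *Pdk1*, both lower in RNA, also had lower peaks alone. The *Ldha* peaks lay 14.8 and 12.4 kb upstream, with differences of -0.57 and -0.35. The *Pdk1* peaks included chr2:71843229-71843629, in intron 20 of 25 of *Itga6* and 29.8 kb upstream of *Pdk1*, with a difference of -0.96, and chr2:71865925-71866325, 7.10 kb upstream, with a difference of -0.93. *Pfkfb4* had a peak in its intron 9 of 13 with a difference of -0.97.

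*Eno2* had a single peak, at chr6:124769347-124769747, which covers its start and was annotated to the end of the neighbouring gene *Lrrc23*. Its mean log2 concentration was 10.28 in WT and 10.70 in *UTX TCD* cells, a difference of 0.43, small beside the log2 fold change of 2.26 in RNA. *Hk2* had peaks in its intron 7 of 17 and 60.0 kb downstream of the start, with differences of 0.44 and 0.58. *Pdha1* had 3 higher peaks, with differences from 0.33 to 0.58, of which the largest was intergenic and 14.9 kb upstream. *Aldoc*, *Aldoa*, *Eno3* and *Pdhb* had no listed peak. Of 12 genes past the adjusted p, 8 had peaks, and at 6 of them every peak differed in the direction of the RNA, beside 61.7% of all genes past the adjusted p with a listed peak. The exceptions were *Slc16a1* and *Eno1*, whose peak in intron 2 of 11 was higher by 0.42 while its RNA was lower.

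Peaks were also listed at 12 of the 18 genes whose RNA did not pass, and at 7 of the 12 every peak differed in the direction of the RNA, beside 48.1% of all such genes. *Pgam1* had the largest increase of all 35 peaks, with a mean log2 concentration of 7.32 in WT and 8.60 in *UTX TCD* cells, a difference of 1.27. *Ldhb* had 3 higher peaks, of which the nearest lay at its start with a difference of 0.32 and the largest 20027 bases upstream with a difference of 0.84. *Slc16a3* had a peak at its end with a difference of 0.73, and *Slc2a1* a peak in its intron 2 of 9 with a difference of -0.84. *Hif1a* peaks lay 59014 bases upstream, with a difference of 0.60, and in intron 5 of 14, with a difference of 0.51. *Gpi1*, *Pfkm*, *Pfkp*, *Pfkfb3*, *Pgk1* and *Pkm* had higher peaks alone, with differences from 0.37 to 0.62, and *Pfkfb2* a lower peak with a difference of -0.55.

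The neighbours of the 4 genes past both limits, looked at after those calls were known, did not all move with them. Next to *Eno2* on chromosome 6, *Atn1* was higher (log2 fold change 0.75, SE 0.09, limma adjusted p = 0.000180), *Lrrc23* was higher by less than the fold limit (log2 fold change 0.49, SE 0.13, limma adjusted p = 0.0170) and *Grcc10* was lower (log2 fold change -0.39, SE 0.07, limma adjusted p = 0.00289). *Spag5*, 616 bases from *Aldoc*, was higher (log2 fold change 0.81, SE 0.12, limma adjusted p = 0.000753) while *Aldoc* was lower, and *Pigs*, 641 bases away on the other side, did not pass. The nearest neighbour of *Hk2*, *Pole4* at 71982 bases, was lower by less than the fold limit (log2 fold change -0.30, limma adjusted p = 0.000506). *Sema4f*, 137430 bases from *Hk2* on the other side, was lower (log2 fold change -1.62, SE 0.11, limma adjusted p = 8.16e-06) while *Hk2* was higher. The genes directly on either side of *Slc16a1*, *Lrig2* and *Tafa3*, did not pass the adjusted p, whereas *Ppm1j* and *Rhoc*, 122490 and 130572 bases away, were higher (log2 fold changes 0.59 and 0.72).

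Letters of known binding motifs were searched on both strands of promoter sequence from RefSeq (GRCm38.p6), 250 bases before to 50 after each start, in which 29 of the 30 genes matched, all but *Slc2a3*, with 45 starts. ACGTG, the core bound by HIF-1, was in 22 of 45 windows (48.9%), at 18 genes, beside 19.6% of all 32851 promoter windows and 24.9% of those of tested genes. These shares count windows, of which a gene can have several, and a share per gene over all genes was not computed. CACGTG, the E-box bound by MYC, which contains ACGTG, was in 7 of 45 (15.6%), beside 7.15% of all and 9.63% of those of tested genes. CTTTGA, bound by TCF1, was in 6 of 45 (13.3%), beside 16.0% of all and 12.1% of those of tested genes, and TTCNNNGAA, bound by STAT factors, in 2 of 45 (4.44%), beside 8.30% and 6.83%. In the 35 peaks, CTTTGA was in 13 (37.1%), beside 30.6% of 23907 listed peaks of the same width on chromosomes, ACGTG in 6 (17.1%), beside 24.4%, CACGTG in 3 (8.57%), beside 8.35%, and TTCNNNGAA in 2 (5.71%), beside 11.9%. TGANTCA, bound by AP-1, and TGTGGT, bound by RUNX factors, were added only after TGANTCA had been seen in the *Slc16a1* peak sequence. TGANTCA was in 9 of 35 peaks (25.7%), that peak included, beside 12.8% of listed peaks, and in 1 of 45 promoter windows (2.22%), beside 7.81% of all and 5.21% of those of tested genes. TGTGGT was in 13 of 35 peaks (37.1%), beside 39.7%, and in 7 of 45 promoter windows (15.6%), beside 16.8% of all and 13.0% of those of tested genes. These matches describe letters only.

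The central 300 bases of the *Slc16a1* peak with the largest decrease of all 35 are shown on the plus strand of mm10, chr3:104670388-104670687. Capitals mark TGANTCA.
Slc16a1 peak: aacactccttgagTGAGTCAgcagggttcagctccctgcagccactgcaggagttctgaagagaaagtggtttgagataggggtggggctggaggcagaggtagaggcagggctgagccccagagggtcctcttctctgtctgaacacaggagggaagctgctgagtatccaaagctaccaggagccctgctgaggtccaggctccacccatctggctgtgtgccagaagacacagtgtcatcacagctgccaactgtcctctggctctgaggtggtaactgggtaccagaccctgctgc

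The 250 bases before the start of the 4 genes past both limits are shown on the strand of each gene, since these are the promoters of the genes whose RNA differed most. They are chr6:82774455-82774704 (minus strand) for *Hk2*, chr6:124769674-124769923 (minus strand) for *Eno2*, chr3:104638414-104638663 (plus strand) for *Slc16a1* and chr11:78322823-78323072 (plus strand) for *Aldoc*, in GRCm38.p6. Capitals mark ACGTG or its reverse complement in *Hk2*, CACGTG in *Slc16a1* and TGTGGT in *Aldoc*, and none of the searched letters was in the *Eno2* stretch.
Hk2 promoter: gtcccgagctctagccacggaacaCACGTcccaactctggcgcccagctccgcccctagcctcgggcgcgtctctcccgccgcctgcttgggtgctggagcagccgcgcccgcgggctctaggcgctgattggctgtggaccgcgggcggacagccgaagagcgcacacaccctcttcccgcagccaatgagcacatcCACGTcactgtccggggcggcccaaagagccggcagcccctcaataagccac
Eno2 promoter: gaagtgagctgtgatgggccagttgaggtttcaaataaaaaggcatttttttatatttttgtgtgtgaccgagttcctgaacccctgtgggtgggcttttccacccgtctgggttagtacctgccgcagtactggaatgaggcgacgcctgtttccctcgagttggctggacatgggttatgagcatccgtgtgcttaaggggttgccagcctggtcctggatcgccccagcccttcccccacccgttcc
Slc16a1 promoter: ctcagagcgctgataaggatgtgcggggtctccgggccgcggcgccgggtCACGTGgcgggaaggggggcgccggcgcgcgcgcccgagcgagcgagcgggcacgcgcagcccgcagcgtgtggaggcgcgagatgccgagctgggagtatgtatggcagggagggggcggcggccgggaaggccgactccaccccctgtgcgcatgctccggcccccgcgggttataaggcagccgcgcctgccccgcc
Aldoc promoter: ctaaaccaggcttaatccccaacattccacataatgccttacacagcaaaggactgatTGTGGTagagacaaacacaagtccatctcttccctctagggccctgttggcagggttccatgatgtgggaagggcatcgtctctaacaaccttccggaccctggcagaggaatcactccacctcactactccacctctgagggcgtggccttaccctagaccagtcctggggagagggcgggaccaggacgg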

How the data were processed

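RNA-seq and ATAC-seq libraries were grouped by genotype as the sample labels give it. For RNA-seq, after FastQC the authors mapped reads with HISAT2 2.2.1 on mm10, then applied featureCounts and DESeq2. The deposited RNA-seq signal was the count per gene divided by a size factor per library. Division by the smallest value above 0 of a library gave whole reads, within 0.01, for 100% of values. The authors also deposited their own log2 fold change, its standard error (a score) and an adjusted p-value per gene, which were not used. For ATAC-seq, the authors trimmed with Cutadapt, aligned with Bowtie2, called peaks with MACS2, compared genotypes with DiffBind and annotated peaks with HOMER; whether reads were shifted for the transposase is not given in the sources used here. The deposited ATAC-seq values used were the authors' mean log2 concentration per genotype. The authors' own fold, p-value and FDR per peak were not used as results, and every listed FDR was under 0.05.

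limma 3.58.1 in R 4.3.3 (lmFit, then eBayes with a trend) compared genotypes for genes whose normalized counts averaged 10 or more, on the log2 of the normalized count plus 1, with Benjamini-Hochberg adjustment over all genes tested. Changes past both limits had an adjusted p under 0.05 and a log2 fold change above 0.5 or below -0.5. The test was checked on simulated data, and the outcome of that check is not reported here. Isozyme shares used normalized counts per kilobase of RefSeq exons of GRCm38, with exact permutation tests in scipy 1.17.1. Alternatives covered the pseudocount, filter, scaling, edgeR 4.0.16 and DESeq2 1.42.0 on the recovered reads, which called 2541 and 2489 genes where limma called 2538, a replicate block, fold and peak limits, gene length and each library left out. All 30 genes were accounted for; given in full were those past both limits, then those past the adjusted p whose groups did not overlap, to 12 in all, with *Hif1a* and *Gapdh*. Of other lists, genes past both limits and at most 5 more were named, with 4 genes as label checks and, for each of the 30 genes, its nearest and largest peak; 1 peak sequence is not reported here. *Klrb1c*, *Pcna*, *Pdk3*, *Col1a1*, *Pdpn*, the most abundant gene of each marker sum, neighbouring genes and the motifs TGANTCA and TGTGGT were added after values or sequences had been seen. The genes and lists were chosen with earlier results of these data known.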

Additional observations from a re-analysis of the deposited data

How the results depend on the processing

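*Eno2* and *Slc16a1* kept their direction and both limits in all 15 refits, and *Hk2* in 14; a stricter fold limit is counted apart from these. Only 1 gene was called lower, rather than 2, without a filter on low counts, with equal sums, with DESeq2 and with the replicate block, and 1 to 2 with a library left out; *Aldoc* was the gene lost. With a library left out 1 to 2 genes were called higher, and with a fold limit of 1.5 only 1 was, since *Hk2* lies under it. With equal sums the median log2 fold change was 0.048 for the 30 genes and 0.062 for all genes, as this scaling raised all genes alike. The median of the 30 genes was also above 0 without WT replicate 3 (0.017) and without *UTX TCD* replicate 1 (0.014), and below 0 in all other refits. Genes near 0 changed sign. With equal sums, the log2 fold change was 0.040 for *Gpi1*, 0.032 for *Pfkl*, 0.056 for *Pfkp*, 0.024 for *Pgk1*, 0.056 for *Pgam1* and 0.0075 for *Pkm*. With a library left out it ranged from -0.021 to 0.061 for *Hk1*, -0.061 to 0.024 for *Gpi1*, -0.10 to 0.033 for *Pfkl*, -0.025 to 0.0055 for *Pfkp*, -0.088 to 0.021 for *Pgk1*, -0.091 to 0.077 for *Pgam1* and -0.0088 to 0.039 for *Hif1a*. Of genes that kept their sign but moved by a factor over 1.5, it ranged from -0.095 to -0.00074 for *Pkm*, 0.083 to 0.21 for *Slc2a3*, 0.033 to 0.10 for *Pfkfb3*, 0.12 to 0.29 for *Tpi1*, 0.19 to 0.46 for *Ldhb*, 0.093 to 0.21 for *Pdk2* and 0.042 to 0.26 for *Slc16a3*. The cause of the changes with a library left out was not tested. Within 1 kb of a start 3 peaks remained, 3 higher and 0 lower, and with group means over 0.5 apart 20 remained, 10 of them higher, beside 67.5% of all listed peaks at that limit. By coding length, the share in *UTX TCD* minus WT cells, in percentage points, was 0.0593 for *Aldoa*, -0.0593 for *Aldoc*, -3.94 for *Eno1*, 4.07 for *Eno2*, -1.58 for *Slc16a1*, 1.58 for *Slc16a3*, -3.46 for *Slc2a1* and 3.46 for *Slc2a3*, all in the direction found by exon length. The shares of *Aldoa* and *Aldoc* overlapped between genotypes by both lengths, as did that of *Eno3*, whose difference changed sign, from 0.0214 by exon length to -0.124 by coding length.

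Same-numbered deviations correlated at 0.305, -0.200 and 0.0897, without a common sign. With 3 libraries per group this cannot settle whether libraries were paired. The replicate block called 2474 genes in place of 2538. *UTX TCD* replicate 1 was the shallowest library, with 61512402 counted reads; leaving it out gave *Aldoc* an adjusted p of 0.0995.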
